A study of Mus musculus with 4 samples.

Results

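The major histocompatibility complex (MHC) class I genes and the genes of the immunoproteasome were followed across the cell classes of the mouse colon, with and without dextran sulfate sodium (DSS). They comprised 10 of the 55450 genes in the count matrices and were matched by symbol: H2-K1, H2-D1, B2m, Tap1, Tap2, Tapbp, Psmb8, Psmb9, Psmb10 and Nlrc5. The tissue was mid-colon of specific-pathogen-free mice aged 7 weeks, dissociated for single-cell RNA sequencing. For 2 days the treated animals had 3% DSS in the drinking water, a polymer toxic to the gut epithelium, and the controls had plain water. Each group held 2 droplet libraries, called here control 1, control 2, DSS 1 and DSS 2. Neither strain, sex and genotype nor the number of mice behind a library is stated in the labels, so the p-values reflect how far these libraries differ, and that spread may be technical. The question was how far the class I machinery of each cell class differed in the first stage of colitis.

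MHC class I molecules carry short peptides of the cell's own proteins to its surface, where CD8 T cells and natural killer (NK) cells read them. H2-K1 and H2-D1 encode classical heavy chains, and B2m encodes beta-2-microglobulin, the light chain they pair with. Peptides are cut by the proteasome, pumped into the endoplasmic reticulum by the transporter that Tap1 and Tap2 encode, and loaded with the help of tapasin, the product of Tapbp. Psmb8, Psmb9 and Psmb10 encode catalytic subunits that take the place of Psmb5, Psmb6 and Psmb7 in the proteasome core of immune cells and of cells that have met interferon gamma. Nlrc5 encodes a transactivator of class I genes. In the colon, epithelial class I is known to respond to interferon from T cells and NK cells during inflammation.

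After filtering, 42448 cells remained, between 9039 and 11591 per library, with median depths of 4731 to 6298 unique molecular identifiers (UMIs) per cell. The libraries held 101051573 to 109472082 UMIs each, and pairs of libraries shared 28 to 41 cell barcodes, at most 0.418% of the smaller library. Cells with over 25% mitochondrial UMIs were removed more often from the control libraries (1539 of 10966 and 2260 of 13014 barcodes) than from the DSS libraries (659 of 12778 and 841 of 13093). Clusters were named from marker genes with the class I, proteasome, interferon and class II genes kept out of the clustering, so that no class was defined by a gene described here. A class name means that at least 3 markers of that type were higher in the cluster than in other cells, so each class is to be read as cells like that type. A total of 16 classes had at least 30 cells in every library: 4 epithelial, 3 stromal, glia and 8 immune. Clusters 5, 11 and 14 kept their numbers because the marker rules gave them no class name, although some of their leading genes were listed markers. Cluster 5 was epithelial and led by Cyp2c68, Aqp4, Hao2 and Gsdmc2, cluster 11 was stromal and led by Pln, Rergl and Notch3, and cluster 14 held T cell markers together with Cd7, Ccl5 and Klra7. Of these genes, Aqp4 is on the colonocyte list and Notch3 on the pericyte list. The UMIs of each class were summed per library, and levels are given as CPM, the UMIs of a gene after that sum was scaled to 1000000.

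Of the 10 genes, 7 lie on chromosome 17 (GRCm38). Tapbp (33915899 to 33929292, plus strand) and H2-K1 (33996017 to 34000347, minus strand) stand at the proximal end of this group, and H2-D1 (35262730 to 35267499, plus strand) at the distal end. Between them lie Psmb9 (34181987 to 34187764, minus strand), Tap1 (34187553 to 34197225, plus strand), Psmb8 (34197721 to 34201454, plus strand) and Tap2 (34203527 to 34216321, plus strand), whose order puts each proteasome gene beside a transporter gene. B2m lies on chromosome 2 (122147686 to 122153083, plus strand), and Psmb10 (105935735 to 105938444, minus strand) and Nlrc5 (94434356 to 94527272, plus strand) lie on chromosome 8. The annotated ends of Tap1 and Psmb9 overlap head to head, Psmb8, Tap2 and Psmb10 each overlap an annotated antisense gene, and B2m overlaps Patl2 on the other strand. H2-K1 and H2-D1 are near-identical over long stretches, so the division of reads between them is uncertain.

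The promoters are shown because class I genes are known to share short control elements bound by factors of the NF-kB, interferon regulatory factor (IRF) and RFX families. The windows run from 250 bases before to 50 bases after the annotated start (RefSeq, GRCm38.p6), and 8 of the 10 genes matched the table. H2-K1 is at chr17:34000298-34000597 on the minus strand, H2-D1 at chr17:35262844-35263143, B2m at chr2:122147437-122147736, Tap1 at chr17:34187306-34187605 and Psmb8 at chr17:34197945-34198244, these 4 on the plus strand. Capitals mark exact matches on either strand to the NF-kB motif GGGANTTCC or its longer form, GGGGA joined to TTCCC, the IRF site, which is GAAA and GAAA with 2 bases between them, the gamma-activated site (GAS) TTCNNNGAA, the X2 box TGACG and the Y box ATTGG.
H2-K1: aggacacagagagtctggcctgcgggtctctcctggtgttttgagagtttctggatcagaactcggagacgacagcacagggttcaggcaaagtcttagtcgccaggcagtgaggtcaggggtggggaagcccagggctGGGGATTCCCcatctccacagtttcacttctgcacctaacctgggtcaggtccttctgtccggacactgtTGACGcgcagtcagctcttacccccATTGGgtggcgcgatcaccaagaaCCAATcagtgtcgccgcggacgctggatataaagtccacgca
H2-D1: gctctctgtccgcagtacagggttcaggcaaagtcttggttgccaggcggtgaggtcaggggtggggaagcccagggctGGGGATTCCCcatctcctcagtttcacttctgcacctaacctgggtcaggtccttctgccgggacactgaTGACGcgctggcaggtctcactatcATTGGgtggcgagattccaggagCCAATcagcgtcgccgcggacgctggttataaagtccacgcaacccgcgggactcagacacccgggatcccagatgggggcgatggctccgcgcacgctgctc
B2m: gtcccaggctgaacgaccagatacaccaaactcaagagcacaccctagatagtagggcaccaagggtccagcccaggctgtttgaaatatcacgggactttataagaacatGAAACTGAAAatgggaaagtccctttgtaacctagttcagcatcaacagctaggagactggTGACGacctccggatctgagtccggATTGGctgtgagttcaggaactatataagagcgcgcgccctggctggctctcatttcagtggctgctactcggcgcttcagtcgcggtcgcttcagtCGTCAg
Tap1: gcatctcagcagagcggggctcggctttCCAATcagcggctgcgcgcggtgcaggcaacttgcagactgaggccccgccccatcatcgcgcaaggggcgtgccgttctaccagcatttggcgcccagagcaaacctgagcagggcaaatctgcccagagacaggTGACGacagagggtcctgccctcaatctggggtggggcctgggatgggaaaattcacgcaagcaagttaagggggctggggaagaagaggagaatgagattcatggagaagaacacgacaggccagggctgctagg
Psmb8: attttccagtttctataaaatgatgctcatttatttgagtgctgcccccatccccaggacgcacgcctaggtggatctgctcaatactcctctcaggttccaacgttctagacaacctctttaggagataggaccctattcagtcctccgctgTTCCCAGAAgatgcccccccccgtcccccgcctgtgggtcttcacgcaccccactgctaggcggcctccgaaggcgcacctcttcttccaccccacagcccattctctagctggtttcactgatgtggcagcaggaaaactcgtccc
The H2-K1 and H2-D1 windows could be aligned over 228 columns, of which 206 were identical. The NF-kB match stood 111 bases before the start of H2-K1 and 171 bases before that of H2-D1, and 1.8% of all 27025 promoter windows held such a match. The IRF match was found in the B2m window (139 bases before the start; 3.49% of all windows) and the GAS match in the Psmb8 window (97 bases before the start; 8.47% of all windows). The X2 box was found in 5 of the 8 windows (H2-K1, H2-D1, B2m, Tap1 and Psmb9) and in 21% of all windows, and the Y box in 6 of 8, those 5 and Tapbp, and in 37.9% of all windows. In H2-K1, H2-D1 and B2m the distance from the first base of TGACG to the first base of ATTGG was 25 bases in each. That spacing, noticed after the matches had been seen, occurred in 26 of the 27025 windows (0.0962%). The GC box GGGCGG, which is not marked, was found in 3 windows (Tap1, Psmb9 and Tapbp) and in 35.9% of all windows. The Tap1 and Psmb9 windows are opposite strands of the same stretch over 275 bases, so their matches are partly the same letters, and the Psmb10 window held no match.

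**Figure D1:**
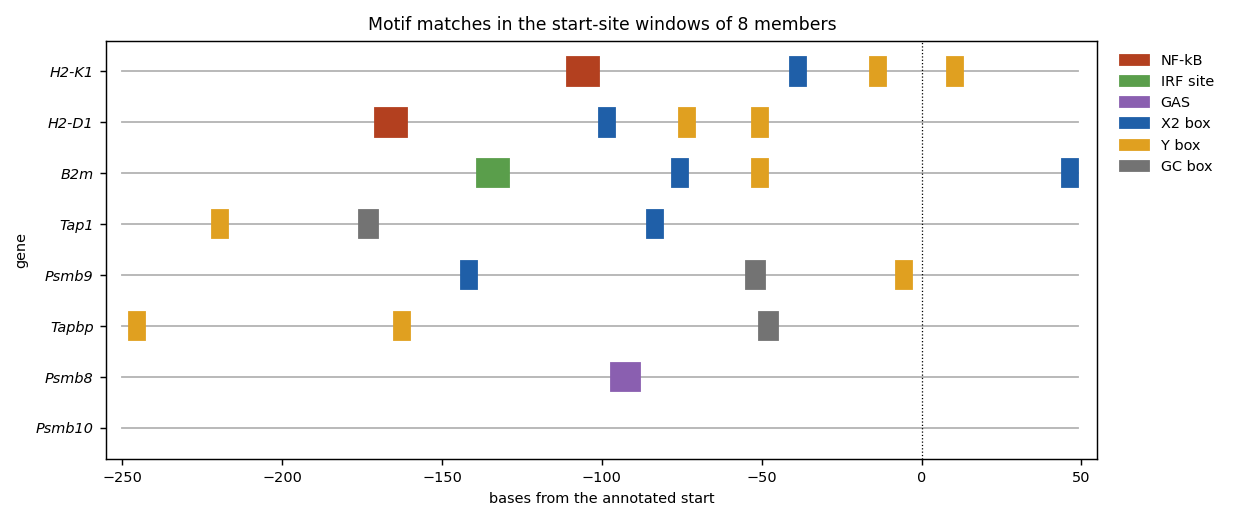
Positions of exact motif matches in the start-site windows of 8 genes; the x axis gives bases from the annotated start and each row is 1 gene. The X2 box of H2-K1, H2-D1 and B2m is followed by a Y box 25 bases downstream, whereas the NF-kB match is seen in H2-K1 and H2-D1 alone.

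In control tissue the heavy chains and B2m were highest in NK cells. H2-K1 stood at 2883 and 3142 CPM in the NK cells of control 1 and control 2, and at 1848 and 2588 CPM in the T cells. At the other end, H2-K1 stood at 110 and 253 CPM in the stromal cluster 11, and the means of the highest and the lowest class differed 16.6-fold. H2-D1 was likewise highest in NK cells (2414 CPM ± 273, SD, n = 2) and lowest in cluster 11 (181 CPM ± 53.6), and so was B2m (3247 CPM ± 568 and 216 CPM ± 37.5). Glia, the support cells of the enteric nerves, had 1701 and 1452 CPM of H2-D1, beside 1429 and 1676 CPM in T cells, which they overlapped, and above every epithelial and stromal class. Plasma cells were close to T cells for B2m, with 2485 and 2129 CPM against 2673 and 2440 CPM. They held less of the heavy chain H2-D1, at 560 CPM in both controls.

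Within the epithelium the heavy chains were highest in colonocytes. H2-K1 stood at 1087 and 1120 CPM in colonocytes, the absorptive cells of the surface, in the control libraries. The crypt progenitors had 236 and 299 CPM and the mucus-secreting goblet cells 507 and 582 CPM, so that the values of the 3 classes did not overlap. The epithelial cluster 5, at 316 and 470 CPM, lay between progenitors and goblet cells. H2-D1 was also highest in colonocytes and lowest in progenitors, with 744 CPM ± 37.5 (SD, n = 2) in colonocytes, 413 CPM ± 40.1 in goblet cells and 218 and 249 CPM in the progenitors of the controls, and with 364 and 483 CPM in cluster 5. B2m had another order: colonocytes had 702 CPM ± 34.4, but progenitors, at 347 CPM ± 9.27, stood above goblet cells, at 270 CPM ± 0.239. Over all 16 classes, 9 of the 15 pairs of neighbours in the order of H2-K1 levels had overlapping library values, as had 9 for H2-D1 and 7 for B2m.

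The transporter and tapasin genes spread less evenly. By control means Tap1 was highest in dendritic cells, which present antigen to T cells, with 114 and 124 CPM in the controls. T cells, at 115 CPM ± 61.7, overlapped dendritic cells, and 13 of the 15 pairs of neighbouring classes overlapped for Tap1. Every epithelial class lay far below, from 5.74 and 6.41 CPM in goblet cells to 6.39 and 11.1 CPM in progenitors. Cluster 11 was lowest, at 5.58 and 5.72 CPM. Tap2 ran from 108 CPM ± 45.9 in NK cells to 5.52 CPM ± 1.36 in progenitors. Tapbp varied least of the 10 genes (3.67-fold from the highest to the lowest class). It was highest in fibroblasts, the collagen-making cells of the stroma, at 215 and 250 CPM, and lowest in progenitors, at 44.9 and 81.9 CPM, and each of its 15 pairs of neighbouring classes overlapped.

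The 3 immunoproteasome subunits did not share 1 pattern in the control libraries. Psmb8 had 649 and 488 CPM in dendritic cells and 10.4 and 14.9 CPM in cluster 11, a 45.0-fold span of the means, and all 8 immune classes stood above all others. Psmb9 had 197 and 253 CPM in dendritic cells and 3.19 and 4.01 CPM in cluster 11, a 62.6-fold span. Psmb10, in contrast, was highest in the epithelial cluster 5 (198 and 171 CPM), followed by colonocytes (174 and 130 CPM), and the means of the immune classes lay between those of goblet cells (63.5 CPM) and cluster 5 (184 CPM). NK cells overlapped the top class for Psmb8 (441 CPM ± 303) and for Psmb10 (147 CPM ± 94.9). Neighbouring classes overlapped in 10 pairs for Psmb8, 11 for Psmb9 and 13 for Psmb10, and were apart in 5, 4 and 2 pairs. Nlrc5 was highest in T cells, with 55.8 and 75.7 CPM, followed by cluster 14 (29.7 and 86.8 CPM) and NK cells (34.5 and 52.0 CPM), whose values overlapped. In the epithelium Nlrc5 was close to the limit of these counts, with 10 and 46 UMIs in the colonocytes and 4 and 1 UMIs in cluster 5 of the controls. A total of 8 of the 10 genes had their highest mean control level in an immune class, the exceptions being Tapbp and Psmb10.

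**Figure D2:**
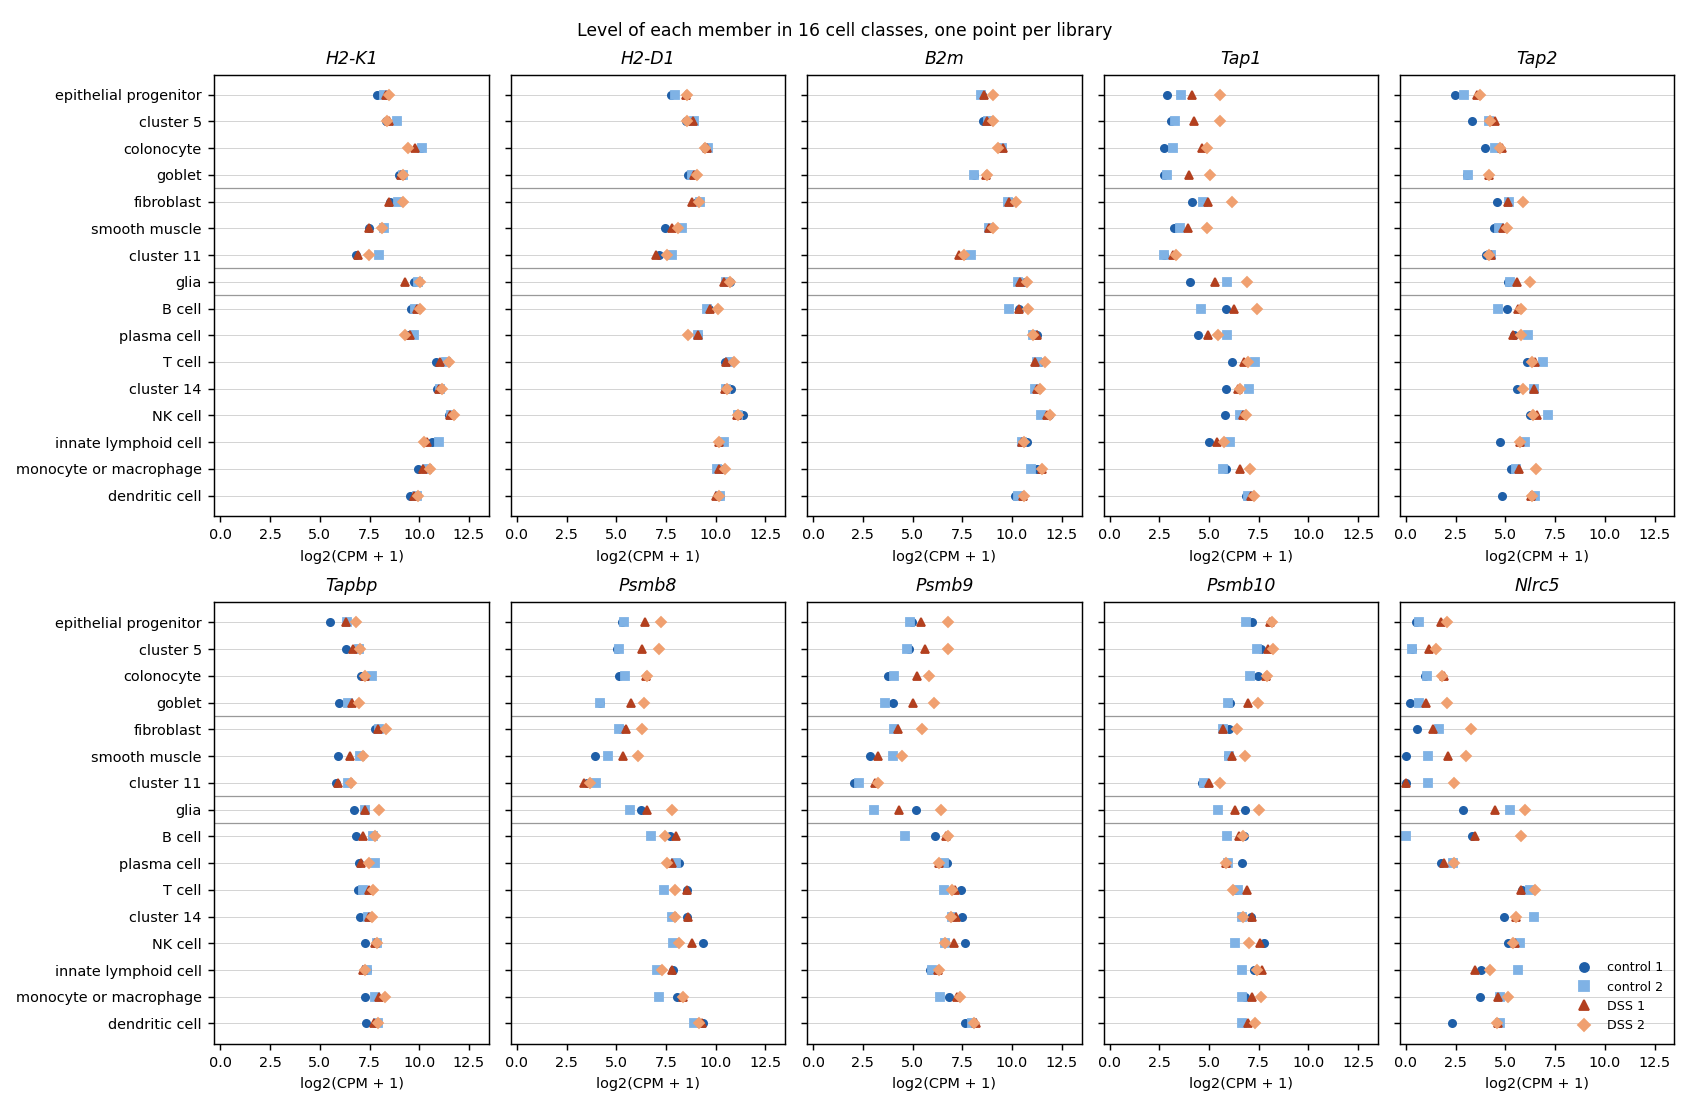
Level of each gene in 16 cell classes on a log2(CPM + 1) scale (x axis), with 1 point per library; grey lines separate epithelial, stromal, glial and immune classes. By control means, H2-K1, H2-D1 and B2m peak in NK cells, Psmb8 and Psmb9 in dendritic cells, and Psmb10 in cluster 5. The control values of the top class overlap those of NK cells for Psmb8, and those of colonocytes and NK cells for Psmb10.

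The genes whose control levels were most like those of H2-K1 over the 16 classes, by Pearson correlation of log2(CPM + 1) means, were 2900060B14Rik (0.90), Tnfaip3 (0.89), Nabp1 (0.89), Madd (0.89) and Zbp1 (0.89). Among the 10 genes themselves, H2-D1 stood at 0.94 to H2-K1 and Psmb10 at 0.52. The genes most like Psmb8 were Traf1, Myo1g, Arhgap30 and Gpr171 (each 0.95) and Srgn (0.94), beside 0.97 for Psmb9, 0.94 for Tap1 and 0.45 for Psmb10. These values describe 16 classes that share 2 libraries.

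In the epithelial progenitors, 4 of the 10 genes rose in DSS and none fell, against 1.26% of the 12640 genes tested that rose and 1.71% that fell (edgeR, adjusted p under 0.05). The 4 were Tap1 and the 3 immunoproteasome subunits. Psmb8 stood at 38.5 and 40.7 CPM in control 1 and control 2 and at 85.8 and 153 CPM in DSS 1 and DSS 2. Its log2 fold change was 1.62 ± 0.28 (SE; adjusted p = 0.0086). Tap1 stood at 6.39 and 11.1 CPM in the controls and at 16.7 and 45.2 CPM in DSS, with a log2 fold change of 1.98 ± 0.38 (adjusted p = 0.016). For both genes each DSS library lay above each control, and DSS 2 lay furthest.

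Psmb9 rose from 30.4 and 27.8 CPM to 41.7 and 110 CPM in the progenitors (1.43 ± 0.35, adjusted p = 0.045), and Psmb10 from 143 and 114 CPM to 263 and 286 CPM (1.08 ± 0.27, adjusted p = 0.048). The DSS values of Psmb10 were close together, whereas DSS 2 alone carried most of the difference in Psmb9. The heavy chains had smaller differences that did not pass, at 0.34 ± 0.27 for H2-K1 (adjusted p = 0.60) and 0.66 ± 0.27 for H2-D1 (0.25), as had B2m at 0.39 ± 0.31 (0.59). Tap2 (1.08 ± 0.39, adjusted p = 0.18), Tapbp (0.65 ± 0.28, 0.28) and Nlrc5 (2.56 ± 0.75, 0.097) did not pass either, and the value of Nlrc5 rests on 10 and 6 UMIs in the controls and 2 and 13 in DSS. Both DSS libraries lay above both controls for 9 of the 10 genes, against 19.6% of all genes. The median log2 fold change of the 10 was 1.08, beside -0.04 over all genes tested.

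The calls in progenitors rest on 35 cells in DSS 1 and 151 in DSS 2, against 1460 and 582 in the controls. They came from clusters 10 and 23 in different proportions, cluster 23 being 272 and 167 cells of the controls and 16 and 103 of DSS. Psmb8 stood at 36.8 and 33.6 CPM against 43.3 and 113 CPM in cluster 10 and at 43.0 and 52.4 CPM against 119 and 166 CPM in cluster 23. Tap1 stood at 7.24 and 8.99 CPM against 16.2 and 34.0 CPM in cluster 10 and at 4.04 and 14.6 CPM against 17.0 and 48.6 CPM in cluster 23. Both clusters had too few cells in DSS 1 for a test. In that library cluster 10 held 19 cells and 369489 UMIs, and cluster 23 held 16 cells and 469921 UMIs. Both DSS libraries lay above both controls in each cluster for Psmb8, Tap1 and Psmb10, and Psmb9 overlapped in cluster 10. The share of all genes that lay above is not given for these clusters. Without DSS 2 none of the 10 genes passed, with 1.11 ± 0.41 for Psmb8 (adjusted p = 0.23) and 0.96 ± 0.55 for Tap1 (0.69), and with clusters drawn at resolution 2 Psmb8 alone passed. Markers of immune cells moved with these calls. The summed level of 17 immune marker genes in progenitors was 228 and 2160 CPM in the controls and 4577 and 2570 CPM in DSS, 13 of the 17 lay above in both DSS libraries, and Ptprc, Fcer1g, Cd52 and Lyz2 passed the test; at most 1 of the 17 was at 0 in a library. That sum was larger in DSS 1, and Psmb8, Psmb9, Psmb10 and Tap1 were larger in DSS 2. The same 17 genes summed to 504432 to 558908 CPM in plasma cells and to 2658 to 48329 CPM in the other immune classes, so the sum follows plasma cell RNA most. Its part in the result was not tested. The summed level of 9 epithelial marker genes was also higher in the DSS progenitors, at 15495 and 19889 CPM against 9844 and 8898 CPM, and its part in the result was not tested.

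Among the loading and trimming partners in progenitors, 1 gene passed. Tapbpl, which encodes a tapasin-related peptide editor, rose from 14.5 and 20.7 CPM to 35.7 and 43.3 CPM (1.20 ± 0.28, adjusted p = 0.039), and the other 6 loading and trimming partners did not pass. None of 12 other class I heavy chains passed (median 0.43), among which H2-T23 had 0.42 ± 0.28 and Fcgrt 0.02 ± 0.35. None of 7 proteasome activator and assembly genes passed (median 0.26), with 0.26 ± 0.29 for Psme1 and 0.27 ± 0.29 for Pomp. The constitutive catalytic subunits had 0.22 ± 0.29 (Psmb5), 0.14 ± 0.28 (Psmb6) and 0.17 ± 0.26 (Psmb7), and the 11 other core subunits a median of 0.22, with none passing. Of 6 MHC class II genes none passed (median 0.83), with 1.10 ± 0.39 for the invariant chain gene Cd74 and 0.52 ± 0.37 for H2-Ab1.

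In goblet cells the differences were as large, but none of the 9 genes tested passed, and no gene of the 13157 tested was called higher (0%). Psmb8 stood at 17.2 and 17.0 CPM in the controls and at 52.2 and 83.3 CPM in DSS, 2.10 ± 0.23 on the log2 scale (adjusted p = 0.081). Tap1 (2.05 ± 0.33), Psmb9 (1.96 ± 0.35) and Psmb10 (1.35 ± 0.24) had an adjusted p of 0.11 each, and Tap2 (1.32 ± 0.25) had 0.12. Tapbp had 0.75 ± 0.21 (adjusted p = 0.22) and B2m 0.79 ± 0.27 (0.28), with B2m at 270 and 269 CPM in the controls and 405 and 432 CPM in DSS. Both DSS libraries lay above both controls for 8 of the 9 genes (12.7% of all genes), H2-K1 being the exception. At an unadjusted p under 0.05 there were 7 of the 9, all higher, against 8.69% of all genes that were higher at that level. DESeq2 called 5 of the 9, and over all 13157 genes it called 322 higher and 144 lower. The 9 genes had a median of 1.32, beside 0.00 over all genes.

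Summed marker genes were also higher in the goblet cells of the DSS libraries. The 17 immune markers summed to 958 and 3056 CPM in the controls and to 16368 and 6034 CPM in DSS, with 11 of 17 above in both DSS libraries and at most 1 at 0 in a library. The 9 epithelial markers summed to 10874 and 8640 CPM and to 35968 and 37403 CPM. They include Tff3 and Zg16 of the goblet marker list, so their sum does not measure RNA from other cells alone. The part of these RNAs in the differences was not tested. All 6 class II genes lay above the controls in both DSS libraries, with a median of 2.60 and none passing. Cd74 stood at 19.6 and 68.5 CPM against 312 and 121 CPM and H2-Ab1 at 6.15 and 20.9 CPM against 98.2 and 33.5 CPM, both with DSS 1 highest, as the immune markers were. Among 18 interferon and class I regulators none passed (median 0.40), with 1.04 ± 0.24 (adjusted p = 0.17) for the interferon gamma receptor gene Ifngr1 and 0.03 ± 0.20 (0.96) for Jak1.

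In colonocytes the transporter and immunoproteasome genes were higher in DSS and the heavy chain H2-K1 was lower, though none of the 10 genes passed (0% of 13903 genes were called higher and 0.00719% lower). Tap1 stood at 5.71 and 8.13 CPM in the controls and 24.3 and 29.2 CPM in DSS (1.81 ± 0.24, adjusted p = 0.072). Psmb8 stood at 34.6 and 41.9 CPM and at 89.1 and 91.3 CPM (1.12 ± 0.19, adjusted p = 0.096), and Psmb9 at 12.5 and 15.5 CPM and at 35.8 and 54.8 CPM (1.57 ± 0.25, 0.096). For H2-K1 the order was the other way, with 1087 and 1120 CPM in the controls and 885 and 683 CPM in DSS (-0.60 ± 0.28, adjusted p = 0.30). Both DSS libraries lay above both controls for 6 of the 10 genes (30.8% of all genes) and below for H2-K1 (20.3%). At an unadjusted p under 0.05 there were 4 of the 10, all higher, against 9.72% of all genes. DESeq2 called 3 of the 10, and over all 13903 genes it called 314 higher and 318 lower. The immune marker sum was 338 and 2792 CPM in the controls and 5275 and 734 CPM in DSS, and 1 of 17 markers was higher in both DSS libraries; its part was not tested.

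The colonocytes were made up of different clusters in the libraries, and the difference in H2-K1 was not seen within clusters 0 and 1. Colonocyte cluster 0, with 674, 2499, 117 and 450 cells in control 1, control 2, DSS 1 and DSS 2, had 1538 and 1471 CPM of H2-K1 in the controls and 1574 and 1671 CPM in DSS (0.02 ± 0.30). Cluster 1 had a log2 fold change of 0.13 ± 0.22 for H2-K1. Cluster 8, of which 1642 cells came from DSS 2 and 7, 244 and 77 from the other libraries, had 454 to 625 CPM in all 4 libraries. In cluster 8 Psmb8 stood at 41.3 and 50.4 CPM against 80.8 and 84.1 CPM, and Tap1 overlapped, at 34.4 and 13.1 CPM against 27.1 and 27.2 CPM. In cluster 0, Tap1 (5.62 and 8.31 CPM against 31.4 and 49.6 CPM) and Psmb8 (42.9 and 44.8 CPM against 127 and 167 CPM) rose by 2.42 ± 0.31 and 1.65 ± 0.24 (adjusted p = 0.034 and 0.036), in a comparison added after the data had been seen, in which 0.224% of genes rose. In cluster 1 none passed (0.0582% of genes rose) and 5 of 9 genes were under 0.05 unadjusted, all higher, against 6.22% of all genes, with 2.13 ± 0.31 for Tap1 (adjusted p = 0.079) and 1.43 ± 0.20 for Psmb8 (0.076). The immune marker sums of cluster 0 were 411 and 3199 CPM in the controls and 5951 and 1163 CPM in DSS, and their part in the calls was not tested.

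**Figure D3:**
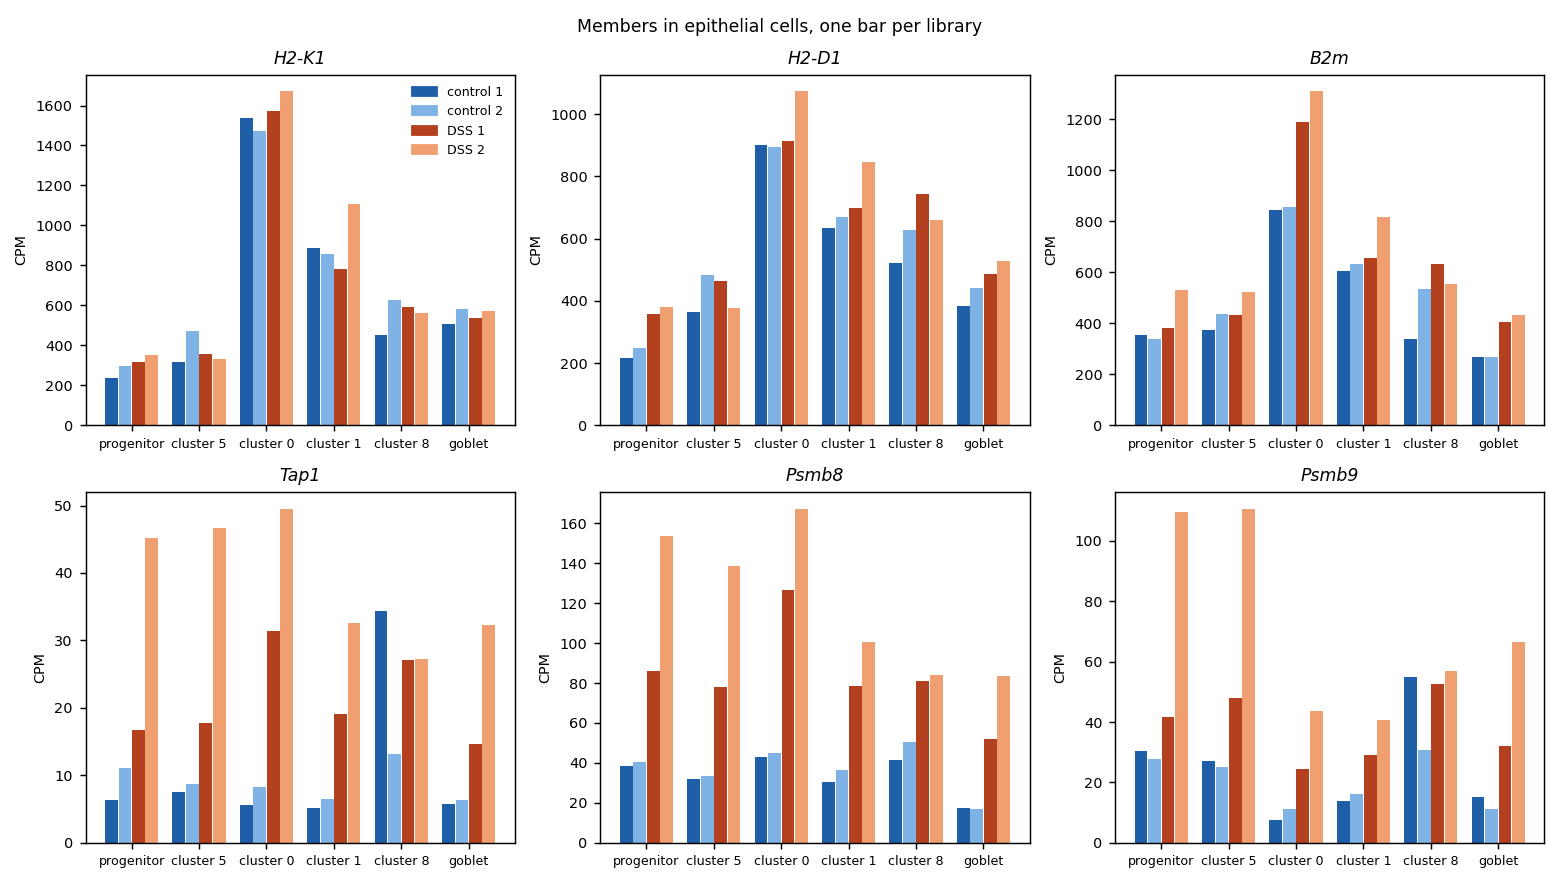
Levels of 6 genes in CPM (y axis) in epithelial progenitors, cluster 5, the colonocyte clusters 0, 1 and 8 and goblet cells, with 1 bar per library. Tap1, Psmb8 and Psmb9 are higher in both DSS libraries in every group shown but cluster 8, where Psmb8 alone is and the control 1 bar rests on 7 cells, and H2-K1 in cluster 0 stands at 1471 to 1671 CPM over the 4 libraries.

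The partner genes in colonocytes went in more than 1 direction. All 11 other core subunits of the proteasome lay above the controls in both DSS libraries (median 0.48, none passing), with 0.30 ± 0.21 for Psmb1 and 0.49 ± 0.20 for Psma7. The loading partners had a median of 0.72 over 7 genes, with 0.79 ± 0.39 for the chaperone gene Hspa5 and 0.94 ± 0.26 for the calreticulin gene Calr, the latter at 184 and 254 CPM in the controls and 478 and 431 CPM in DSS. The 12 other class I heavy chains had a median of -0.22, and the nonclassical genes H2-T23 (-0.64 ± 0.23, adjusted p = 0.21) and H2-Q2 (-0.77 ± 0.27, 0.22) were lower in both DSS libraries. Interferon and class I regulators had a median of -0.05 over 18 genes, with none passing.

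In the epithelial cluster 5, none of the 10 genes passed and no gene was called higher or lower (0% of 12841). Psmb8 stood at 32.0 and 33.6 CPM in the controls and 78.0 and 139 CPM in DSS (1.59 ± 0.28, adjusted p = 0.40), Tap1 at 7.49 and 8.68 CPM and at 17.8 and 46.7 CPM (1.86 ± 0.41, 0.65), and Psmb9 had 1.46 ± 0.35 (0.71). H2-K1 (-0.28 ± 0.31) and H2-D1 (-0.10 ± 0.31) were on the other side of 0. Both DSS libraries lay above both controls for 6 of the 10 genes (19.4% of all genes). At an unadjusted p under 0.05 there were 4 genes, all higher, against 2.16% of all genes that were higher at that level. DESeq2 called 3 of the 10, and over all 12841 genes it called 19 higher and 32 lower. The immune marker sum was 272 and 2013 CPM in the controls and 4488 and 672 CPM in DSS, and its part was not tested.

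Outside the epithelium none of the 10 genes passed in any class, with edgeR or with DESeq2. At an unadjusted p under 0.05 there were 3 in fibroblasts, 2 in smooth muscle, 1 each in glia, B cells and monocytes or macrophages, all higher, against 1.43%, 0.675%, 1.12%, 1.56% and 0.98% of all genes in these classes. There were 0 in the other 7, against 0.291% of all genes in cluster 11, 0.401% in T cells, 0.71% in NK cells, 0.79% in cluster 14, 0.991% in dendritic cells, 1.12% in plasma cells and 1.93% in innate lymphoid cells. Fibroblasts had Tap1 at 16.8 and 24.7 CPM in the controls and at 29.6 and 69.7 CPM in DSS (1.38 ± 0.45), with 1.08 ± 0.44 for Psmb9, 0.90 ± 0.34 for Psmb8 and 2.01 ± 0.99 for Nlrc5 (adjusted p of 1 each, with 0% of 14997 genes called). In these 4 genes DSS 2 was the highest library and DSS 1 lay close to the controls. The fibroblasts too came from different clusters, with 1, 250 and 61 cells of cluster 6 in control 1, control 2 and DSS 1 but 2046 of the 4112 fibroblasts in DSS 2, where Tap1 stood at 65.7 CPM in that cluster. Smooth muscle had 1.51 ± 0.40 for Psmb8 and 1.17 ± 0.50 for Tap1 (adjusted p of 1 each, 0% of 9634 genes called). Glia had 1.21 ± 0.50 for Psmb8 (0% of 5156 genes called), and in cluster 11 Psmb8 had -0.17 (0% of 10293 genes called). Of the immune classes, monocytes or macrophages had 7 of 10 genes above in both DSS libraries (12.7% of all genes, none called) and Tap1 at 57.8 and 50.9 CPM against 94.5 and 130 CPM (1.05 ± 0.34, adjusted p of 1). B cells had 6 of the 9 tested genes above in both DSS libraries (14.1% of all genes, none called), among them H2-K1 (0.31 ± 0.48), H2-D1 (0.36 ± 0.48) and Tap1 (1.22 ± 0.54, adjusted p = 0.74). In innate lymphoid cells H2-K1 had 1806 CPM ± 309 (SD, n = 2) in the controls and 1270 CPM ± 94.9 in DSS. In T cells the log2 fold changes ran from -0.09 for Tap2 to 0.54 for Tapbp, and in NK cells from -0.19 for Psmb9 to 0.62 for Tap1. In plasma cells they ran from -0.26 for Psmb10 to 0.25 for B2m, and 4 of 10 genes were lower in both DSS libraries (31.9% of all genes). No gene was called in 7 of the 8 immune classes (0%), and 0.00998% of genes were called higher in plasma cells.

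**Figure D4:**
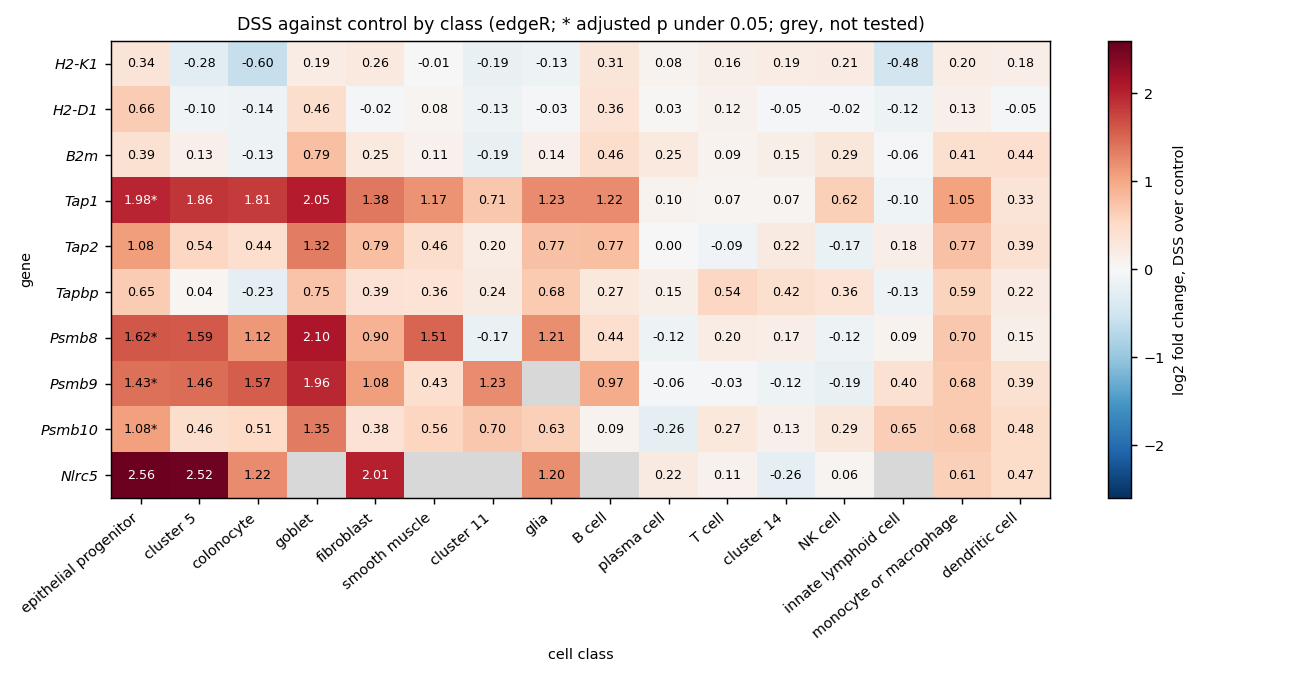
Log2 fold change of DSS over control by gene (rows) and cell class (columns), from edgeR; asterisks mark an adjusted p under 0.05 and grey cells were not tested. The 4 asterisks are in epithelial progenitors, and Tap1 and Psmb8 are above 0.8 in all epithelial classes, fibroblasts, smooth muscle and glia.

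Across the tested classes, the log2 fold change of Tap1 was above 0 in 15 of 16 (median 1.11). H2-D1 was above 0 in 7 of 16 classes (median -0.02), and H2-K1 in 10 (median 0.17). Psmb8 was above 0 in 13 of 16 (median 0.57), Psmb10 in 15 of 16 (median 0.50) and Psmb9 in 11 of 15 (median 0.68). Tap2 and Tapbp were above 0 in 14 of 16 each (medians 0.45 and 0.36), B2m in 13 of 16 (median 0.20) and Nlrc5 in 10 of 11 (median 0.61). The classes share the same 4 libraries and are not independent of each other. Low counts kept Nlrc5 out of the test in 5 classes and Psmb9 in 1.

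The compartments were then compared directly. The compartment sums mix classes whose shares differ between libraries, so shares and levels per cell cannot be told apart in them. Progenitors held 24112391 of 76830028 epithelial UMIs in control 1 and 839410 of 29129426 in DSS 1. Plasma cells held 1273714 of 3812707 immune UMIs in control 1 and 23580435 of 43393740 in DSS 1. Summed over all epithelial classes, Tap1 stood at 6.35 and 8.36 CPM in the controls and at 18.3 and 33.5 CPM in DSS (1.90 ± 0.39, adjusted p = 0.44). Psmb9 (1.56 ± 0.35, 0.44) and Psmb8 (1.45 ± 0.34, 0.46) did not pass either, and 0% of 17681 genes were called higher. At an unadjusted p under 0.05 there were 5 of the 10 genes, all higher, against 1.99% of all genes. DESeq2 called 3 of the 10, and over all 17681 genes it called 55 higher and 164 lower. In the summed immune classes, Tap1 had 0.47 ± 0.31, Psmb8 0.23 ± 0.37 and Psmb9 0.29 ± 0.30, with 0% of 14275 genes called, and in the summed stroma Tap1 had 1.35 ± 0.51, with 0% of 16241 genes called. Unadjusted, 0 of the 10 genes were under 0.05 in the immune sum (0.757% of all genes higher) and 1 in the stroma (0.763%). DESeq2 called none of the 10 in either. It called 17 of all genes higher and 16 lower in the immune sum, and 7 and 10 in the stroma. The difference of the DSS effect, epithelial minus immune, was 1.25 ± 0.39 for Tap1 (edgeR, adjusted p = 0.75), and 1.09 ± 0.45 for Psmb9, 1.09 ± 0.46 for Psmb8 and 1.42 ± 0.61 for Nlrc5 (adjusted p = 0.85 each). These 4 were under 0.05 unadjusted. In that fit over 18327 genes 0.0164% passed and 5.72% were under 0.05 unadjusted, so a larger effect in epithelium was not shown at this threshold. None of the 10 genes passed between epithelium and stroma (0.0218% of genes passed), where Tap1 had 0.58 ± 0.39, or between stroma and immune cells (0% passed), where Nlrc5 had 1.83 ± 0.68. Nor did any pass between epithelium and endothelium (0% passed), whose compartment held 19 cells in control 2. Unadjusted, 0, 1 and 0 of the 10 genes were under 0.05 in these 3 contrasts, against 5.81%, 1.87% and 4.77% of all genes, and DESeq2 called none in any of the 4 contrasts. Over all kept cells, where shares of classes and levels per cell cannot be told apart, Tap1 had 1.70 ± 0.38 (adjusted p = 0.40) and B2m 0.83 ± 0.58 (0.70), with 0% of 21073 genes called. There 5 of the 10 genes were under 0.05 unadjusted, all higher, against 6.57% of all genes. DESeq2 called 3 of the 10, and over all 21073 genes it called 263 higher and 182 lower.

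The exchange of subunits in the proteasome core was followed as the log2 ratio of each induced subunit to its constitutive counterpart in CPM of 3-prime tags, which is read between libraries and not as a ratio of molecules. Ratios of compartment sums also mix classes whose shares differ between libraries. In the summed epithelium Psmb8 to Psmb5 went from -2.26 and -1.02 in the controls to -0.64 and -0.22 in DSS, a difference of 1.21. Psmb9 to Psmb6 differed by 1.35 and Psmb10 to Psmb7 by 0.77, with both DSS libraries above both controls for all 3 ratios. In goblet cells the differences were 2.08, 1.85 and 1.34, and in progenitors 1.26, 1.05 and 0.91. Colonocytes had 0.72, 1.23 and 0.19, the last with overlapping groups. Outside the epithelium, both DSS libraries lay above both controls for all 3 ratios in fibroblasts (1.13, 1.17 and 0.48), B cells (0.81, 1.61 and 0.48) and monocytes or macrophages (0.48, 0.46 and 0.53). In fibroblasts DSS 1 lay close to control 2, at -0.57 against -0.60 for Psmb8 to Psmb5 and -2.56 against -2.61 for Psmb9 to Psmb6. DSS 2 stood at 0.62 and -1.18. Psmb8 to Psmb5 overlapped within the fibroblast clusters 2, 12 and 13 and was higher in both DSS libraries within clusters 9 and 20. The B cell ratio of Psmb9 to Psmb6 stood at -0.97 and -2.58 in the controls, and control 2 held 32 B cells with 85275 UMIs. In the summed immune classes the differences were 0.16, 0.24 and 0.24. Both DSS libraries lay below both controls in NK cells for Psmb8 to Psmb5 (-0.37) and Psmb9 to Psmb6 (-0.33). The same held in cluster 14 for Psmb9 to Psmb6 (-0.56) and Psmb10 to Psmb7 (-0.40). The remaining ratio overlapped in each of these classes. Dendritic cells had a Psmb8 to Psmb5 ratio of 2.12 and 2.87 in the controls and 2.63 and 2.45 in DSS. For this ratio every immune class stood above every epithelial class in each library, whereas for Psmb10 to Psmb7 colonocytes (1.57 and 1.19 in the controls) stood above dendritic cells (0.17 and 0.05). With 2 libraries against 2 no exact test can reach a p below 0.33, and none was run.

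**Figure D5:**
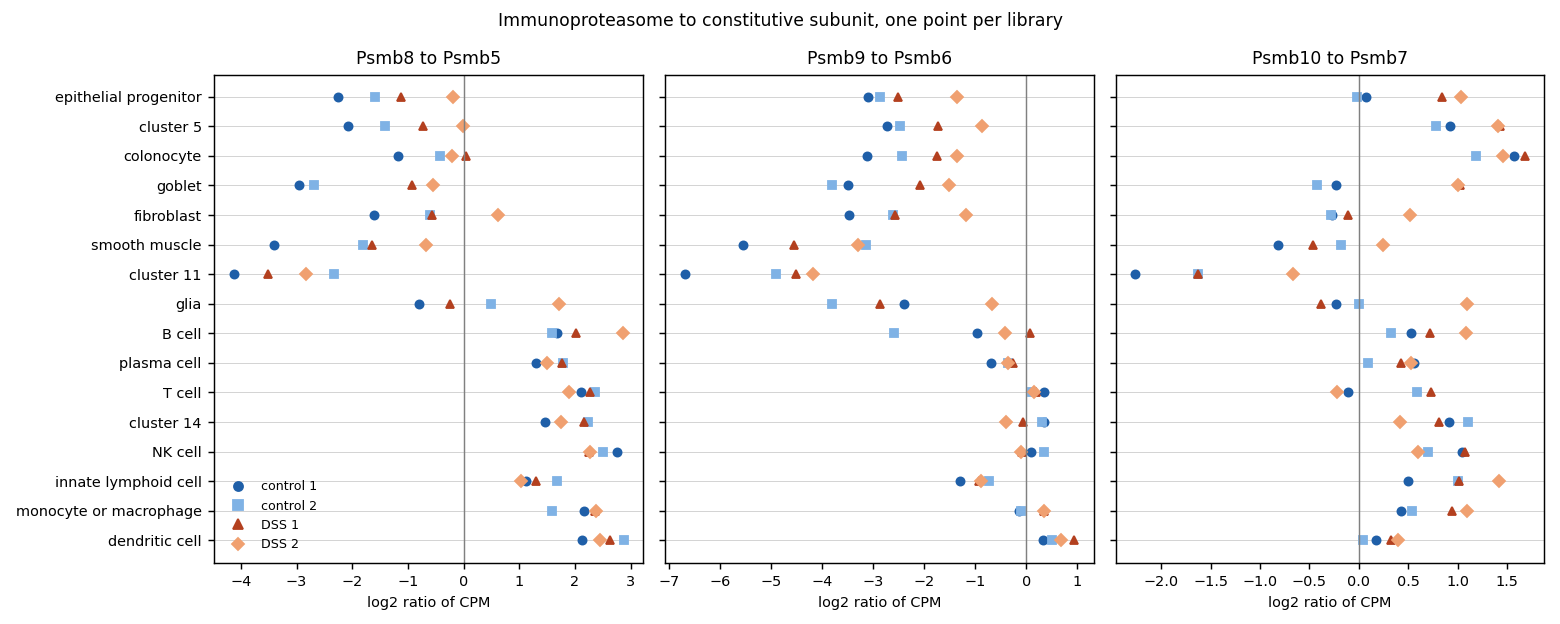
Log2 ratio of the CPM of each immunoproteasome subunit to that of its constitutive counterpart (x axis) in 16 cell classes (rows), with 1 point per library. The DSS points of the goblet cells and progenitors lie to the right of the control points in all 3 panels, and those of the T cells overlap them.

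Single cells were compared after thinning each cell to 2000 UMIs. The share of goblet cells with a Psmb8 UMI was 2.75% and 2.15% in the controls and 7.89% and 12.8% in DSS. In colonocytes it was 6.56% and 7.47% against 18.5% and 16.6%, and in progenitors 7.16% and 5.77% against 9.38% and 23.1%. In T cells the share was 49.4% and 25.8% against 50.2% and 40.3%, and in cluster 11, the class with the lowest Psmb8 level, it was 1.95% and 3.09% against 2.51% and 2.86%. Without thinning, the shares in goblet cells were 24.2% and 21.6% against 47.9% and 58.2%, at median depths of 19899 and 20534 UMIs against 24119 and 23216 UMIs. The summed level of the 10 genes per goblet cell had medians of 1254 and 1404 CPM in the controls and 1514 and 1928 CPM in DSS. The value under which the lowest 10% of the cells lay was 832 and 881 CPM against 902 and 1215 CPM, so the low cells and the median cell were both higher. In the thinned shares 7 to 36 goblet cells per library were left out as too shallow.

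Interferon gamma, the best known inducer of the immunoproteasome, was measured in the same libraries. Ifng stood at 490 and 147 CPM in the NK cells of the controls and at 282 and 230 CPM in those of the DSS libraries, and at 205 and 57.7 CPM against 40.9 and 84.7 CPM in T cells. The groups overlapped in both classes, so the level of Ifng in NK cells and in T cells did not separate DSS from control. Its levels in the other classes are not given here. In these droplet data the level in T cells and NK cells does not give the amount of Ifng in the tissue.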

How the data were processed

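The deposited values are whole-number UMI counts per gene and cell barcode. Per the submitters' processing notes, the tool was Cell Ranger 6.1.1 and the genome GRCm38; no further settings are stated. The labels name both version 3 and version 2 reagents of the 3-prime kit. Cells with at least 500 UMIs, 250 genes and at most 25% mitochondrial UMIs were kept (44356 of 49851 barcodes), and doublets predicted with Scrublet in scanpy 1.11.5 (3.03% to 5.38%) were removed after clustering with leidenalg 0.10.2 at resolution 1 (2000 variable genes, 40 components, 20 neighbours, no integration). A marker counted when detected in at least 15% of a cluster at 2-fold the level elsewhere, and clusters with over 50% doublets stayed unnamed.

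For each class the UMIs of a library's cells were added up, and these sums were fitted with edgeR 4.0.16 under R 4.3.3 (quasi-likelihood F test, two-sided; TMM, filterByExpr, group as the sole term), adjusted by the Benjamini-Hochberg method over all genes of a class, at 0.05. Compartments were compared by an interaction with library as a block. The SE given with an edgeR log2 fold change is its absolute value divided by the square root of the F statistic. The endothelium was not tested alone, since control 2 held too few of its cells. Alternatives were DESeq2 1.42.0, RLE scaling, no filter, left-out libraries, a replicate block, kept doublets, a limit of 10% mitochondrial UMIs, resolution 2 and other clustering genes. The edgeR test was checked on simulated data with known changes.

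All 10 genes were measured in the 16 classes with at least 30 cells in every library, of 24 classes and unnamed clusters, and the text gives part of these values. Genes of the partner lists were named where they passed or, in a list without a call, where they were among the 2 of highest mean CPM in the class, and the 5 genes most like H2-K1 and Psmb8 were named by their correlation over classes. Ifng and Psmb5 to Psmb7 were also named outside this rule, after their values were seen. The interferon and class I regulators of the progenitors are not reported here. The genes and lists were chosen with earlier results of these data known. Positions are from GENCODE M21, to which all 55450 identifier and symbol pairs matched.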

Additional observations from a re-analysis of the deposited data

Results flagged for a closer look

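In the following genes both DSS libraries lay on 1 side of both controls in 1 class and on the other side in another, and the difference between the classes was not tested. The values are log2 fold changes of DSS over control. H2-K1 had 0.34 in epithelial progenitors and -0.60 in colonocytes, where the difference was not seen within clusters 0 and 1. H2-D1 had 0.66 in epithelial progenitors and -0.12 in innate lymphoid cells, and Tapbp had 0.75 in goblet cells and -0.13 in innate lymphoid cells. Psmb8 had 2.10 in goblet cells and -0.12 in plasma cells, Psmb9 had 1.96 and -0.056, and Psmb10 had 1.35 and -0.26 in the same classes. For each gene the classes given are those with the highest and the lowest fold change among the tested classes whose groups did not overlap. Of all genes, both DSS libraries lay above both controls for 19.6% in progenitors and 12.7% in goblet cells. They lay below for 20.3% in colonocytes and 31.9% in plasma cells. That share is not given for innate lymphoid cells.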

How the results depend on the processing

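In epithelial progenitors 4 of the 10 genes passed, 0 to 5 with 1 library left out (0 without DSS 2), 2 with doublets kept and 1 at resolution 2. The genes called there over all genes, 159 higher and 216 lower, became 377 and 459 without a filter, 495 and 551 with the replicate block, 97 and 80 without DSS 2, 464 and 384 without control 2, 95 and 142 with doublets kept, and 52 and 75 at resolution 2. Where no gene passed, leaving out 1 library gave 0 to 3 in cluster 5, 0 to 2 in colonocytes, 0 to 3 in goblet cells and 0 to 1 in the summed epithelium, in each case the highest without DSS 1; the lone library is then assumed to vary like the others. Without a filter on low counts 3 passed in cluster 5, 3 in colonocytes, 2 in fibroblasts, 6 in goblet cells, 3 in the epithelium, 2 in the stroma and 2 over all cells. That setting called 112 of all tested genes higher and 122 lower in cluster 5, and 146 and 57 in fibroblasts. In the epithelium it called 176 and 304, in the stroma 87 and 58, and over all cells 446 and 185. DESeq2 gave 3 in cluster 5, 3 in colonocytes, 5 in goblet cells, 3 in the epithelium and 3 over all cells. It called 19 of all tested genes higher and 32 lower in cluster 5. In the epithelium it called 55 and 164, and over all cells 263 and 182. With at most 10% mitochondrial UMIs 2 passed in colonocytes, as did 2 within colonocyte cluster 0 alone, a comparison chosen after seeing the data. At that limit 59 of all genes were called higher and 44 lower in colonocytes. The causes were not tested. The replicate block gave 2 in colonocytes, 2 in fibroblasts and 5 in goblet cells. In fibroblasts it called 176 of all genes higher and 84 lower. Over all genes, the 0 higher and 0 lower of goblet cells became 881 and 395 without a filter, 491 and 214 with the replicate block and 322 and 144 with DESeq2, and the 0 and 1 of colonocytes became 582 and 614, 123 and 119, and 314 and 318. Libraries of the same number deviated together by a correlation of -0.14 in cluster 5 to 0.56 in monocytes or macrophages over 2 pairs. Cluster 5 alone was below 0, and the next lowest value was 0.16, in colonocytes. These correlations do not show that the numbers pair the libraries. In cluster 5 the crossed pairing, chosen after seeing the data, gave 0 of the 10 genes and called 2 genes higher and 0 lower. No fold change of the 10 genes that passed turned its direction under these settings. The limits are 2 libraries a group, 35 progenitors in DSS 1, and few UMIs of Nlrc5 in epithelium.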
